A study of Mus musculus with 24 samples.

Results

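The thioredoxin, sulfiredoxin and peroxiredoxin genes studied here are Txn1, Txnrd1, Srxn1, Txnip and Prdx1 to Prdx6, 10 genes chosen by name. Every probe set that names the gene alone was used. This gave 18 of the 45037 probe sets tested, for 7 of the 10 genes: Srxn1 and Prdx4 had 4 each, Txnrd1 had 3, Txn1, Txnip and Prdx2 had 2 each and Prdx3 had 1. The 5 probe sets of Prdx1 also name another gene, and none was listed under Prdx5 or Prdx6 in the annotation used, so these 3 genes were not analysed here.

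Liver RNA of male C57BL6/J mice was measured on Affymetrix whole genome arrays, with 1 array per mouse and 8 mice in each of 3 groups. From an age of 8 weeks all mice received a western diet, that is a high-fat diet with 6% sucrose in the drinking water. Over 7 weeks each mouse was injected once a week into the tail vein with 1 mg per kg of a modified siRNA. The siKeap1-1 and siKeap1-2 groups received different siRNAs against Keap1, and the siControl group received a scrambled siRNA, so the controls shared the diet, the injections and the carrier. A lipid nanoparticle carried each siRNA, with hepatocytes as its main target. The methods name 4 fed and 4 fasted mice per group, but the labels do not say which mice were fasted, and the part of feeding in the spread between mice was not tested. The comparisons ask which of these genes differ in liver when Keap1 is lowered, and whether the siRNAs differ.

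Thioredoxin is a small protein that reduces disulfides in other proteins, and thioredoxin reductase restores it with electrons from NADPH. Peroxiredoxins break down hydrogen peroxide through a reactive cysteine and are mostly restored by thioredoxin. When peroxide overoxidises that cysteine, sulfiredoxin repairs it. Keap1 marks the transcription factor Nrf2 for degradation, and Nrf2 binds antioxidant response elements in the promoters of its target genes, to which Srxn1 and Txnrd1 are known to belong. Txnip binds and inhibits thioredoxin and is a known glucose-responsive gene of the liver.

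Promoter sequences from RefSeq (GRCm38.p6) are shown for the genes with the clearest changes, Srxn1 and Txnrd1, and for the glucose-responsive Txnip. Each stretch lies on the plus strand, is written from 5′ to 3′ and ends 1 base before an annotated start of transcription. These are chr2:152105344-152105523 for Srxn1, chr10:82859086-82859205 for the second of 3 starts of Txnrd1 and chr3:96557837-96557956 for Txnip. Capitals mark matches to TGACNNNGC (the antioxidant response element core), to TGAGNNNGC (the same with G as its 4th base) or to a pair of CACGNG on the same strand spaced by 5 bases (a carbohydrate response element), searched on both strands.
Srxn1: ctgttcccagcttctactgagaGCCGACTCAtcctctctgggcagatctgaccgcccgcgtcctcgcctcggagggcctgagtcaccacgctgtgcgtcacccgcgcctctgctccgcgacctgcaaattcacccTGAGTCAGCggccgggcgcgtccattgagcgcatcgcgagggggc
Txnrd1: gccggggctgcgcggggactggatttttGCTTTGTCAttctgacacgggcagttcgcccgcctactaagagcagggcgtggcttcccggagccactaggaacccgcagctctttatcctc
Txnip: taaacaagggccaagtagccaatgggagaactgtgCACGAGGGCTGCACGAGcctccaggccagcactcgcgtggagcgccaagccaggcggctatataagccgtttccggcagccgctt
In Srxn1 the TGAGNNNGC form lay at -45 to -37 on the strand of the gene and at -158 to -150 on the opposite strand, counted from the start of transcription. A match to TGACNNNGC lay behind the stretch shown, at 29 to 37 on the opposite strand. Txnrd1 held TGACNNNGC at -92 to -84 on the opposite strand of the second start and no match at its other 2 starts, and Txnip held the carbohydrate response element at -85 to -69. Among 32851 promoter windows of 300 bases (250 before and 50 after a start), 12.4% held TGACNNNGC, 17.6% held TGAGNNNGC and 16 windows (0.0487%) held the carbohydrate response element. Windows were found for 9 of the 10 genes, 11 in all. Prdx1 held TGACNNNGC at -133 to -125 and TGAGNNNGC at 16 to 24, both on the opposite strand, and in the windows of Txn1 and Prdx2 to Prdx5 these letters were not found. The TGAGNNNGC form was added after the Srxn1 promoter had been seen, and a match describes the letters alone.

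Keap1 was lower in both siRNA groups. Its log2 signal ranged from 9.33 to 10.03 with siControl (median 9.57), from 7.21 to 7.93 (median 7.47) with siKeap1-1 and from 8.03 to 8.59 (median 8.23) with siKeap1-2. No group overlapped another. The mean was 77.1% lower with siKeap1-1 and 61.2% lower with siKeap1-2 than with siControl (two-sided exact permutation test over all 12870 splits of 8 against 8 mice, p = 0.000155 for each, the smallest they can give), and it was lower with siKeap1-1 than with siKeap1-2 by the same test (log2 difference -0.76, p = 0.000155). Within groups the arrays correlated between 0.9885 and 0.996 across probe sets, and their median log2 signals lay between 5.84 and 5.96. The brightest control probe set for 18S ribosomal RNA was higher with siKeap1-1 (by 1.23, exact permutation test, p = 0.00435) and with siKeap1-2 (by 1.18, p = 0.00155). In siControl it read 10.34 to 10.77 in replicates 1 to 3 and 8.86 to 9.54 in replicates 4 to 8. In siKeap1-1 it read 10.17 to 10.44 and 11.17 to 11.43 in these replicates, and in siKeap1-2 10.82 to 11.12 and 10.45 to 10.96. Of 5 measured hepatocyte markers (Alb, Apoa1, Cps1, Hnf4a and Ttr) limma called 0 with either siRNA (1 and 0 at an unadjusted p under 0.05), and their summed linear signal ranged from 130800 to 136200 with siControl, 127600 to 133400 with siKeap1-1 and 127300 to 134200 with siKeap1-2. Of 5 Kupffer cell markers 2 were lower with siKeap1-1 (Timd4 and Vsig4) and 1 with siKeap1-2 (Timd4). Their sums were 6547 to 11490, 5583 to 10890 and 6608 to 14130 in siControl, siKeap1-1 and siKeap1-2. Cd5l, the brightest of the 5, differed the other way without a call, by 0.18 (siKeap1-1) and 0.32 (siKeap1-2) in log2 signal. Clec4f differed by -0.13 and -0.017 and Adgre1 by -0.55 and -0.44, also uncalled, and Vsig4 by -0.41 in siKeap1-2. Of 4 bile duct markers 1 (Sox9) was higher with both, with sums of 463.8 to 810.6, 685 to 905.1 and 646.9 to 967. Over all genes, at an adjusted p under 0.05, 5.08% were lower and 5.27% higher with siKeap1-1, and 4.2% and 3.14% with siKeap1-2. The other bile duct markers were not called, and with siKeap1-2 their log2 fold changes were -0.36 (Krt19), -0.33 (Krt7) and -0.38 (Epcam). Their part in the results was not tested.

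Of the 18 probe sets, 8 were higher and 1 lower with siKeap1-1 at an adjusted p under 0.05 (limma, adjusted over all 45037 probe sets), while 4.51% of all probe sets were higher and 4.48% lower. With siKeap1-2, 8 were higher and 0 lower, against 3.15% and 2.96% of all probe sets at the same adjusted threshold. The 8 that rose were those of Srxn1 (4 of 4), Txnrd1 (3 of 3) and Txn1 (1 of 2) in both comparisons. At an unadjusted p under 0.05, 10 of the 18 passed with each siRNA, all of them higher with siKeap1-2. No share over all probe sets is given at that unadjusted threshold. Higher values without any overlap between the 8 mice of each group were seen for 6 of the 18 with siKeap1-1 and for 6 with siKeap1-2, and for 0.844% and 0.777% of all probe sets. At a fold above 2 with p under 0.01 before adjustment, 5 of the 18 passed with each siRNA (0.617% and 0.557% of all), which were the 4 of Srxn1 and a dim probe set of Txnrd1. Represented by its brightest probe set, 3 of the 7 genes rose in both comparisons (5.27% and 3.14% of 18193 genes). The median log2 fold change of the 18 was 0.15 with siKeap1-1 and 0.16 with siKeap1-2, beside 0.020 and 0.0030 over all probe sets. Both comparisons share the siControl mice.

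**Figure D1:**
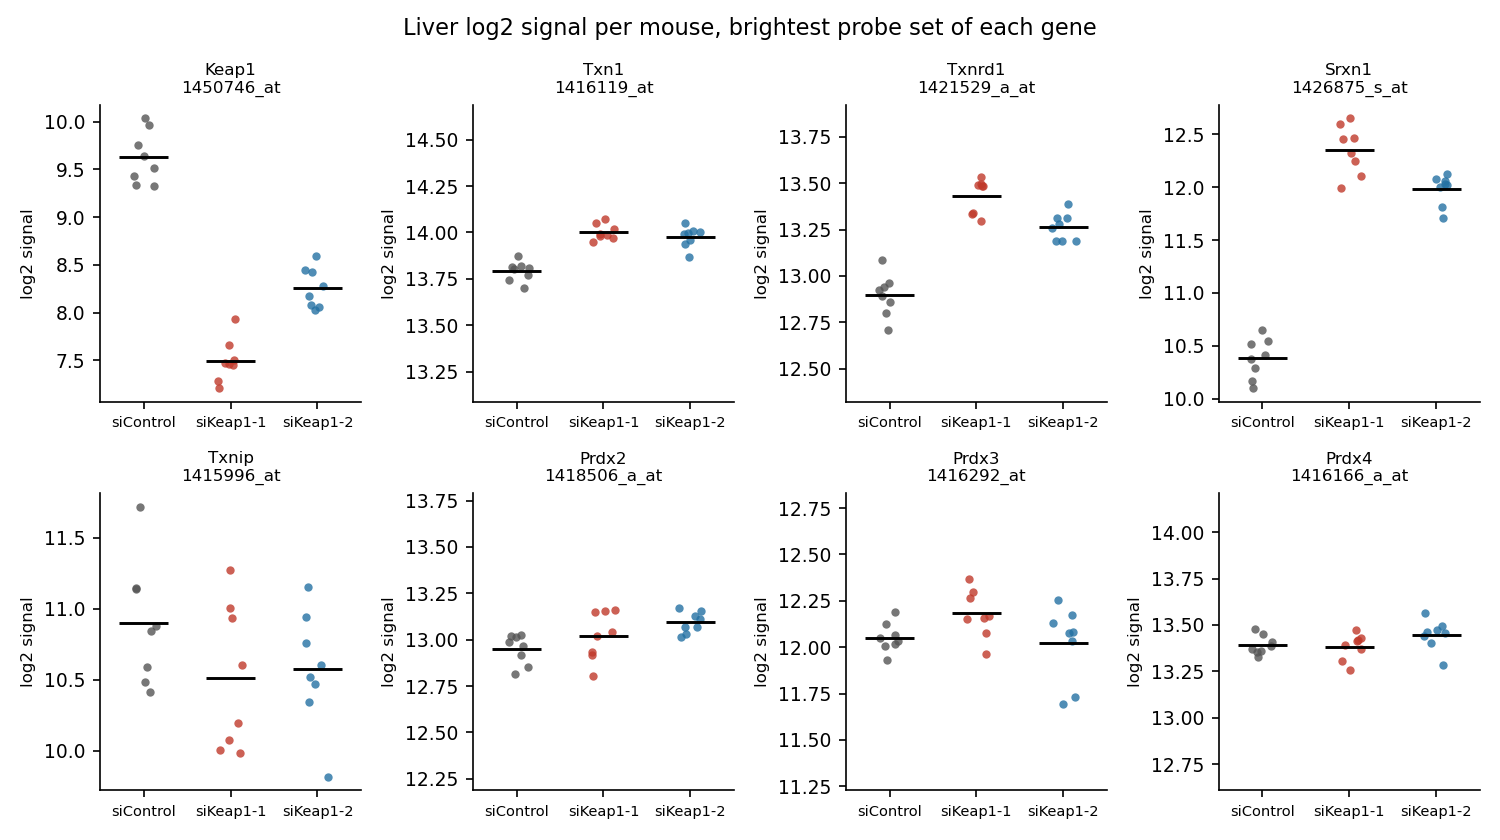
Log2 signal per mouse of Keap1 and of the 7 measured genes, each at its brightest probe set, in the siControl, siKeap1-1 and siKeap1-2 groups (points are mice, n = 8 per group, bars are means). The siKeap1 points of Srxn1 and Txnrd1 lie above all siControl points, those of Txn1 lie higher with 1 overlap at 13.87, and those of Txnip, Prdx2, Prdx3 and Prdx4 overlap the controls.

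Srxn1 (chr2:152105524-152111376), which encodes sulfiredoxin, rose 3.92-fold with siKeap1-1 and 3.02-fold with siKeap1-2 at its brightest probe set. At this probe set, 1426875_s_at, the log2 signal ranged from 10.10 to 10.65 with siControl (median 10.39), from 11.99 to 12.65 with siKeap1-1 (median 12.39) and from 11.71 to 12.12 with siKeap1-2 (median 12.03). All treated mice lay above all controls, and the siRNA groups overlapped each other. The log2 fold change was 1.97 with siKeap1-1 (standard error 0.094, fold 3.92, 95% confidence interval 3.43 to 4.49, adjusted p = 2.44e-13 from limma). With siKeap1-2 it was 1.60 (fold 3.02, interval 2.64 to 3.46, adjusted p = 2.77e-11). The tissue was whole liver, in which a change in the number of cells that use a gene and a change in RNA per cell cannot be told apart.

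The other probe sets of Srxn1 moved the same way. At 1419942_at the log2 fold changes were 2.05 and 1.66, and at 1451680_at they were 1.94 and 1.46, again without overlap with the controls. The dimmest, 1425351_at, ranged from 4.27 to 6.02 in siControl, 6.35 to 7.39 in siKeap1-1 and 5.92 to 6.56 in siKeap1-2. It rose by 1.71 (adjusted p = 1e-06) and by 1.04 (adjusted p = 0.00107), and with siKeap1-2 it overlapped the controls. Measured as deviations from the group means over the 24 arrays, the 4 probe sets correlated with each other between 0.62 and 0.97. With the mean of the 3 control probe sets for 18S as a covariate, 1426875_s_at kept a log2 fold change of 1.81 (adjusted p = 4.19e-09) and 1.44 (adjusted p = 1.93e-07), while 1425351_at had 1.52 (adjusted p = 0.0026) and 0.87 (adjusted p = 0.187). Within replicates 1 to 3 of each group the value of 1426875_s_at was 1.77 and 1.45, and within replicates 4 to 8 it was 2.09 and 1.68, each with an adjusted p under 0.05.

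Between the siRNAs, Srxn1 had point estimates above 0 at each of its 4 probe sets, but none passed the test over all probe sets. The difference of siKeap1-1 minus siKeap1-2 was 0.38 at 1426875_s_at (95% confidence interval 0.18 to 0.57, adjusted p = 0.128 from limma) and 0.67 at 1425351_at (interval 0.29 to 1.04, adjusted p = 0.182). At 1419942_at it was 0.39 (adjusted p = 0.128) and at 1451680_at it was 0.48 (adjusted p = 0.245). In a fit of the 2 siRNA groups alone 1425351_at passed (adjusted p = 0.0477). Of all 18 probe sets limma called 0 between the siRNAs at an adjusted p under 0.05, while 0.162% of all probe sets were called at that threshold. At an unadjusted p under 0.05, 6 of the 18 passed, the 4 of Srxn1 among them. The share over all probe sets at the unadjusted threshold is not given, so this count has no background to be read against.

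**Figure D2:**
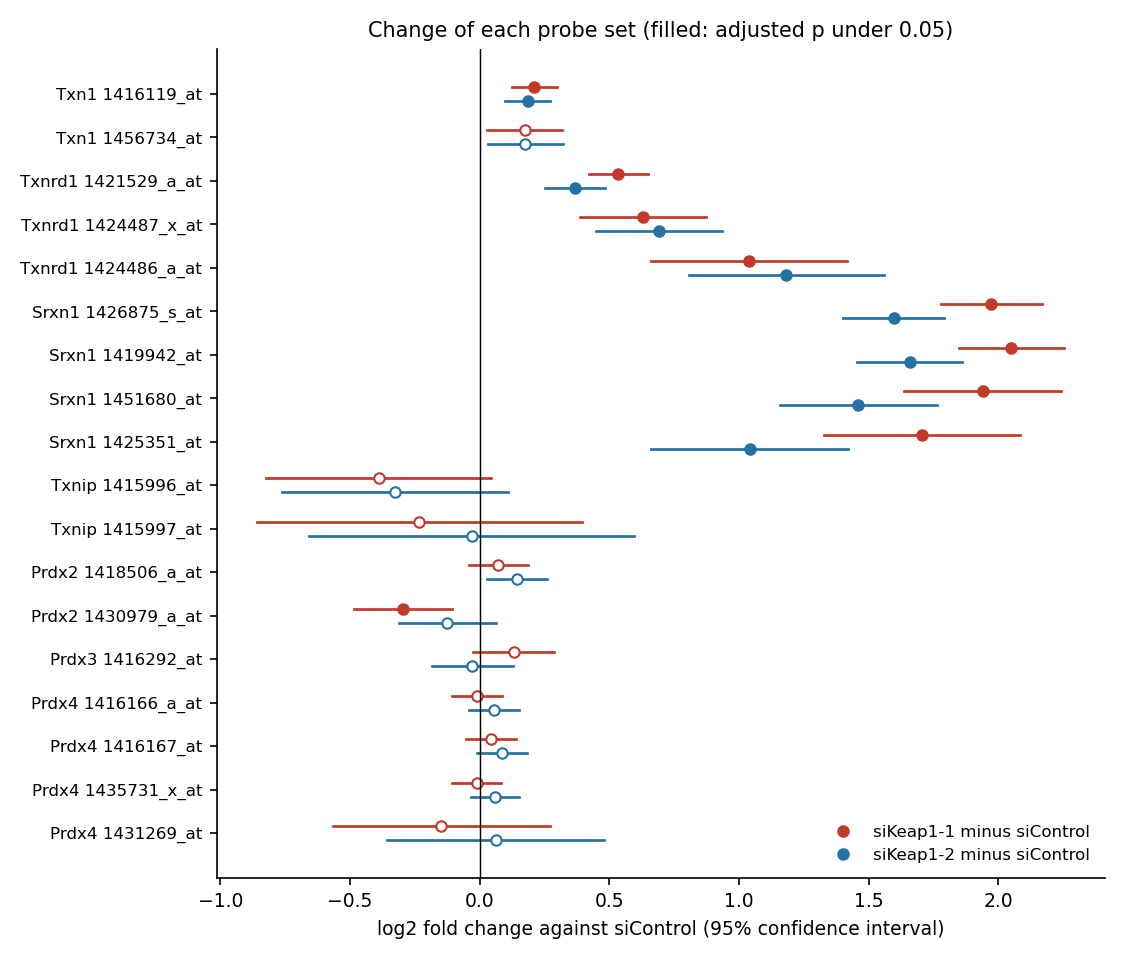
Log2 fold change against siControl of the 18 probe sets, with siKeap1-1 in red and siKeap1-2 in blue. Points are limma estimates with 95% confidence intervals (n = 8 mice per group), filled where the adjusted p was under 0.05. The 4 probe sets of Srxn1 lie at 1.04 to 2.05 and the dim Txnrd1 1424486_a_at at 1.04 and 1.18, and the intervals of Txnip are the widest together with that of Prdx4 1431269_at.

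Txnrd1 (chr10:82833951-82897724), the gene of the cytosolic thioredoxin reductase, rose at all 3 of its probe sets. The brightest, 1421529_a_at, ranged from 12.71 to 13.09 with siControl (median 12.91), from 13.30 to 13.54 with siKeap1-1 (median 13.48) and from 13.19 to 13.39 with siKeap1-2 (median 13.27). Neither treated group overlapped the controls. The log2 fold change was 0.53 with siKeap1-1 (standard error 0.056, fold 1.45, adjusted p = 6.17e-07 from limma) and 0.37 with siKeap1-2 (fold 1.29, adjusted p = 0.000217). The difference between the siRNAs was 0.17 (95% confidence interval 0.053 to 0.28, adjusted p = 0.295).

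The dim probe sets of Txnrd1 gave larger values, and in siControl and siKeap1-1 their signal moved with the 18S control. For 1424486_a_at the log2 signal ranged from 4.19 to 5.23 with siControl (median 4.83), from 4.92 to 6.47 with siKeap1-1 (median 6.01) and from 5.81 to 6.44 with siKeap1-2 (median 5.95). It rose by 1.04 with siKeap1-1 (fold 2.05, adjusted p = 0.000609) and by 1.18 with siKeap1-2 (fold 2.27, adjusted p = 0.000251), and siKeap1-1 overlapped the controls. In siKeap1-1 the values split at the same replicate numbers as the 18S control, 4.92 to 5.54 in replicates 1 to 3 and 6.01 to 6.47 in replicates 4 to 8. The controls split the other way, at 4.99 to 5.23 and 4.19 to 4.87. In siKeap1-2 these replicates overlapped, at 5.81 to 5.97 and 5.81 to 6.44, as they did in the 18S control. Within replicates 1 to 3 of each group the log2 fold change was 0.12 with siKeap1-1 (adjusted p = 0.778) and 0.80 with siKeap1-2 (adjusted p = 0.142). Within replicates 4 to 8 it was 1.59 and 1.41 (adjusted p = 3.66e-06 and 1.53e-05). The 18S covariate left 0.46 (adjusted p = 0.349) and 0.65 (adjusted p = 0.256). A difference between the replicate sets was not tested.

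The third probe set, 1424487_x_at, whose suffix marks probes that can match other sequences, had log2 fold changes of 0.63 (adjusted p = 0.00112) and 0.69 (adjusted p = 0.00074). With siKeap1-1 it read 0.071 within replicates 1 to 3 and 0.96 within replicates 4 to 8, and with siKeap1-2 it read 0.52 and 0.79. With the 18S covariate the values were 0.26 (adjusted p = 0.434) and 0.35 (adjusted p = 0.405). The bright probe set differed from this pattern. Within replicates 1 to 3 it had 0.65 with siKeap1-1 (adjusted p = 0.02) and 0.39 with siKeap1-2 (adjusted p = 0.295), and within replicates 4 to 8 it had 0.46 (adjusted p = 0.000905) and 0.35 (adjusted p = 0.0105). With the 18S covariate it kept 0.61 (adjusted p = 6.66e-05) and 0.44 (adjusted p = 0.00359). As deviations from the group means, the dim probe sets correlated at 0.90 with each other and at -0.20 and -0.24 with the bright one over the 24 arrays.

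**Figure D3:**
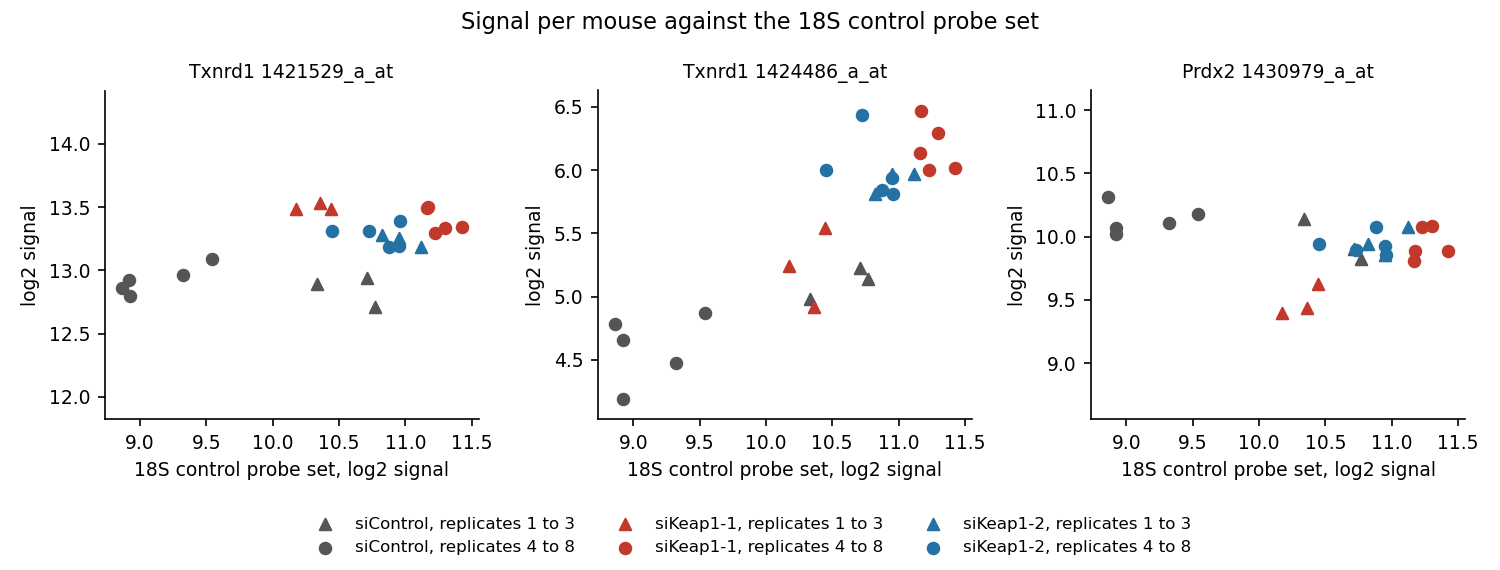
Log2 signal per mouse of the bright (1421529_a_at) and a dim (1424486_a_at) probe set of Txnrd1 and of Prdx2 1430979_a_at against the log2 signal of the brightest 18S control probe set. Colours give the groups, triangles replicates 1 to 3 and circles replicates 4 to 8. The dim Txnrd1 points span 4.19 to 6.47 and rise along the 18S axis in siControl and siKeap1-1. At overlapping 18S values siControl replicates 1 to 3 (4.99 to 5.23) lie below the siKeap1-2 points (5.81 to 6.44). The bright Txnrd1 points of both siRNA groups lie above those of siControl at like 18S values.

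Txn1 (chr4:57943373-57956411), the gene of cytosolic thioredoxin, rose slightly at its bright probe set. The log2 signal of 1416119_at ranged from 13.70 to 13.87 with siControl (median 13.81), from 13.95 to 14.07 with siKeap1-1 (median 13.99) and from 13.87 to 14.05 with siKeap1-2 (median 13.99). The siKeap1-1 mice lay above all controls, and the siKeap1-2 mice overlapped them at 13.87. The log2 fold change was 0.21 with siKeap1-1 (standard error 0.042, fold 1.16, adjusted p = 0.00192 from limma) and 0.19 with siKeap1-2 (fold 1.14, adjusted p = 0.00837). Its spread within groups was small, with a residual SD of 0.050 on the log2 scale. With the 18S covariate, which itself differed between the groups, the values were 0.23 (adjusted p = 0.0553) and 0.20 (adjusted p = 0.179). The standard error with siKeap1-1 was 0.062 in that fit. Against siControl replicates 1 to 3 alone the values were 0.21 (adjusted p = 0.073) and 0.18 (adjusted p = 0.228). The dimmer 1456734_at had 0.17 (adjusted p = 0.133) and 0.18 (adjusted p = 0.145) and overlapped the controls. The siRNAs differed by 0.026 at 1416119_at (95% confidence interval -0.060 to 0.11).

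Txnip (chr3:96557957-96561857), the inhibitor of thioredoxin, varied widely between mice of the same group. At 1415996_at the log2 signal ranged from 10.41 to 11.72 with siControl (median 10.86), from 9.98 to 11.27 with siKeap1-1 (median 10.40) and from 9.82 to 11.15 with siKeap1-2 (median 10.56). The groups overlapped over most of their range. The log2 fold change was -0.39 with siKeap1-1 (95% confidence interval -0.83 to 0.045, adjusted p = 0.279 from limma) and -0.33 with siKeap1-2 (interval -0.76 to 0.11, adjusted p = 0.411). At 1415997_at it was -0.23 (interval -0.86 to 0.39) and -0.031 (interval -0.66 to 0.59). The residual SD within groups was 0.45 at 1415996_at and 0.65 at 1415997_at, above 95.75% and 98.94% of all probe sets. Both probe sets deviated together, with a correlation of 0.83 over the 24 arrays, and siControl replicate 2 was the highest array at each, with 11.72 and 8.05. Without that array the values at 1415996_at were -0.27 and -0.21, and at 1415997_at they were -0.0031 and 0.20. As a fold, the interval of 1415996_at with siKeap1-1 reached from 0.564 to 1.03, so a modest change was not detectable against this spread.

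Of the 7 probe sets of the measured peroxiredoxins (Prdx2, Prdx3 and Prdx4), limma called 1 lower with siKeap1-1 and 0 with siKeap1-2 (1 at an unadjusted p under 0.05). Over all probe sets 4.51% were called higher and 4.48% lower with siKeap1-1, and 3.15% and 2.96% with siKeap1-2. Prdx2 (chr8:84969622-84974811) encodes a cytosolic peroxiredoxin that is also abundant in red blood cells. Its brightest probe set, 1418506_a_at, ranged from 12.82 to 13.02 in siControl, 12.80 to 13.16 in siKeap1-1 and 13.01 to 13.17 in siKeap1-2. All groups overlapped, and the log2 fold changes were 0.072 (adjusted p = 0.482 from limma) and 0.14 (adjusted p = 0.128). The second probe set, 1430979_a_at, ranged from 9.82 to 10.31 with siControl (median 10.09), from 9.40 to 10.08 with siKeap1-1 (median 9.84) and from 9.85 to 10.08 with siKeap1-2 (median 9.93). It fell with siKeap1-1 (log2 fold change -0.30, standard error 0.092, fold 0.814, adjusted p = 0.0415) with overlapping groups, and with siKeap1-2 it had -0.12 (adjusted p = 0.484).

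This call at 1430979_a_at was near the threshold. Leaving out 1 array at a time moved the adjusted p between 0.0197 and 0.0839, and the call was lost without siKeap1-1 replicate 1, 2, 3 or 8 and without any single one of siControl replicates 3 to 8. The siKeap1-1 values read 9.40 to 9.62 in replicates 1 to 3 and 9.80 to 10.08 in replicates 4 to 8. Within these sets of all groups the log2 fold change was -0.47 (adjusted p = 0.107) and -0.19 (adjusted p = 0.157), with the 18S covariate -0.37 (adjusted p = 0.186), and in a fit of siKeap1-1 and siControl alone it had an adjusted p of 0.101. Of 3 measured red blood cell markers limma called 0 (1 at an unadjusted p under 0.05), and Alas2 differed by -0.34 on the log2 scale with siKeap1-1 (adjusted p = 0.0508). Hba-a1 and Hba-a2 differed by 0.051 and -0.061 with siKeap1-1. The summed linear signal of these markers ranged from 3062 to 3977 in siControl, 2125 to 3485 in siKeap1-1 and 2711 to 3532 in siKeap1-2. It is mostly that of Alas2, whose mean log2 signal was 11.47, against 7.67 for Hba-a2 and 3.46 for Hba-a1. The part of these markers in the Prdx2 value was not tested.

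Prdx3 (chr19:60864066-60874538), the mitochondrial peroxiredoxin, ranged from 11.93 to 12.19 in siControl, 11.96 to 12.37 in siKeap1-1 and 11.69 to 12.25 in siKeap1-2. The groups overlapped, and the log2 fold change was 0.13 (95% confidence interval -0.026 to 0.29, adjusted p = 0.322 from limma) with siKeap1-1 and -0.030 (interval -0.19 to 0.13, adjusted p = 0.874) with siKeap1-2. In siKeap1-2, 2 mice read 11.69 and 11.73 and the others 12.04 to 12.25, as the plot of the signal per mouse shows. Prdx4 (chrX:155323918-155342272), the peroxiredoxin of the endoplasmic reticulum, was bright at 3 of its 4 probe sets, among them 1435731_x_at, whose suffix marks probes that can match other sequences. At these the log2 fold changes lay between -0.012 and 0.087 over both siRNAs, with 95% confidence intervals within -0.11 to 0.18, and at the dim 1431269_at they were -0.15 and 0.061 with wider intervals (-0.57 to 0.27 and -0.36 to 0.48). Limma called 0 of the 4 Prdx4 probe sets with either siRNA, and 0 of them passed an unadjusted p under 0.05. As folds, the intervals of the bright probe sets lay within 0.929 and 1.14.

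Other genes of these pathways were read from a list of 25 thioredoxin-related genes, all measured: the mitochondrial system (Txn2, Txnrd2), Txnrd3, thioredoxin-like proteins, glutaredoxins, glutathione reductase, methionine sulfoxide reductases, sestrins, arrestin-domain relatives of Txnip, ribonucleotide reductase and Map3k5. With siKeap1-1, 3 rose and 2 fell at an adjusted p under 0.05 over genes, against 5.27% of all genes higher and 5.08% lower. With siKeap1-2, 2 rose and 1 fell, against 3.14% and 4.2%. Over these 25 genes the median was a log2 fold change of -0.011 and -0.020, beside 0.014 and -0.0073 over all genes. Between the siRNAs limma called 0 of the 25 at an adjusted p under 0.05, while 0.148% of all genes were higher and 0.132% lower at that threshold. At an unadjusted p under 0.05, 1 of the 25 passed, and no share over all genes is given there.

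Gsr, the gene of glutathione reductase, which restores glutathione as thioredoxin reductase restores thioredoxin, ranged from 12.67 to 12.95 with siControl (median 12.81), from 13.27 to 13.47 with siKeap1-1 (median 13.40) and from 12.71 to 13.36 with siKeap1-2 (median 13.18). Its log2 signal was 0.57 higher in siKeap1-1 (standard error 0.073, limma, adjusted p = 1.01e-05) and 0.32 higher in siKeap1-2 (adjusted p = 0.00705), without overlap with siKeap1-1 and with overlap with siKeap1-2. Msra, a methionine sulfoxide reductase that draws on thioredoxin, ranged from 12.26 to 12.50, from 12.58 to 12.84 and from 12.63 to 12.78 in siControl, siKeap1-1 and siKeap1-2. Both treated groups lay above all controls, with log2 fold changes of 0.34 (adjusted p = 1.38e-05) and 0.28 (adjusted p = 0.000238). Glrx, a cytosolic glutaredoxin that uses glutathione, rose by 0.33 with siKeap1-1 (adjusted p = 0.0179) and had 0.25 with siKeap1-2 (adjusted p = 0.0894).

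Among the genes that fell was Sesn1, a sestrin known as a target of p53. It ranged from 10.44 to 10.85 in siControl, 9.94 to 10.42 in siKeap1-1 and 10.05 to 10.56 in siKeap1-2. The siKeap1-1 mice lay below all controls, and the siKeap1-2 mice overlapped them. The log2 fold changes were -0.39 (adjusted p = 0.00158 from limma) and -0.41 (adjusted p = 0.00183). Msrb1, a selenium-containing methionine sulfoxide reductase, fell with siKeap1-1 (log2 fold change -0.17, adjusted p = 0.0125) and had -0.11 with siKeap1-2 (adjusted p = 0.128). At their brightest probe sets the mitochondrial Txn2 and Txnrd2 had log2 fold changes between -0.020 and 0.081, with adjusted p of 0.533 or more. By the mean of their probe sets, Txn2 had 0.13 with siKeap1-1 and 0.058 with siKeap1-2, and Txnrd2 had 0.025 and -0.11. None of these was called (adjusted p of 0.131 or more from limma). Sesn2, another sestrin, differed between its 2 probe sets. The brighter had log2 fold changes of 0.22 (adjusted p = 0.178 over genes) and 0.19 (adjusted p = 0.271), and the dimmer had 0.63 and 0.66 (adjusted p = 0.000795 and 0.000811 over probe sets). By the mean of its probe sets, an alternative chosen for these genes after seeing the data, Sesn2 was called higher with both siRNAs (0.42, adjusted p = 0.00408, and 0.43, adjusted p = 0.00538), which made 4 genes higher with siKeap1-1 and 3 with siKeap1-2. The dimmer probe set had 0.30 (adjusted p = 0.343) and 0.36 (adjusted p = 0.389) with the 18S covariate.

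With the 18S covariate 2 of the 25 genes passed with siKeap1-1, Gsr at 0.49 (adjusted p = 0.011) and Msra at 0.28 (adjusted p = 0.0163), and 0 with siKeap1-2. Sesn1 had -0.38 (adjusted p = 0.0827) and Msrb1 -0.22 (adjusted p = 0.0595) with siKeap1-1, and Glrx had 0.082 (adjusted p = 0.813). With siKeap1-2, Gsr had 0.25 (adjusted p = 0.358), Msra 0.23 (adjusted p = 0.0843) and Sesn1 -0.39 (adjusted p = 0.0983). The standard error of Gsr was 0.102 in this fit and 0.073 without the covariate.

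**Figure D4:**
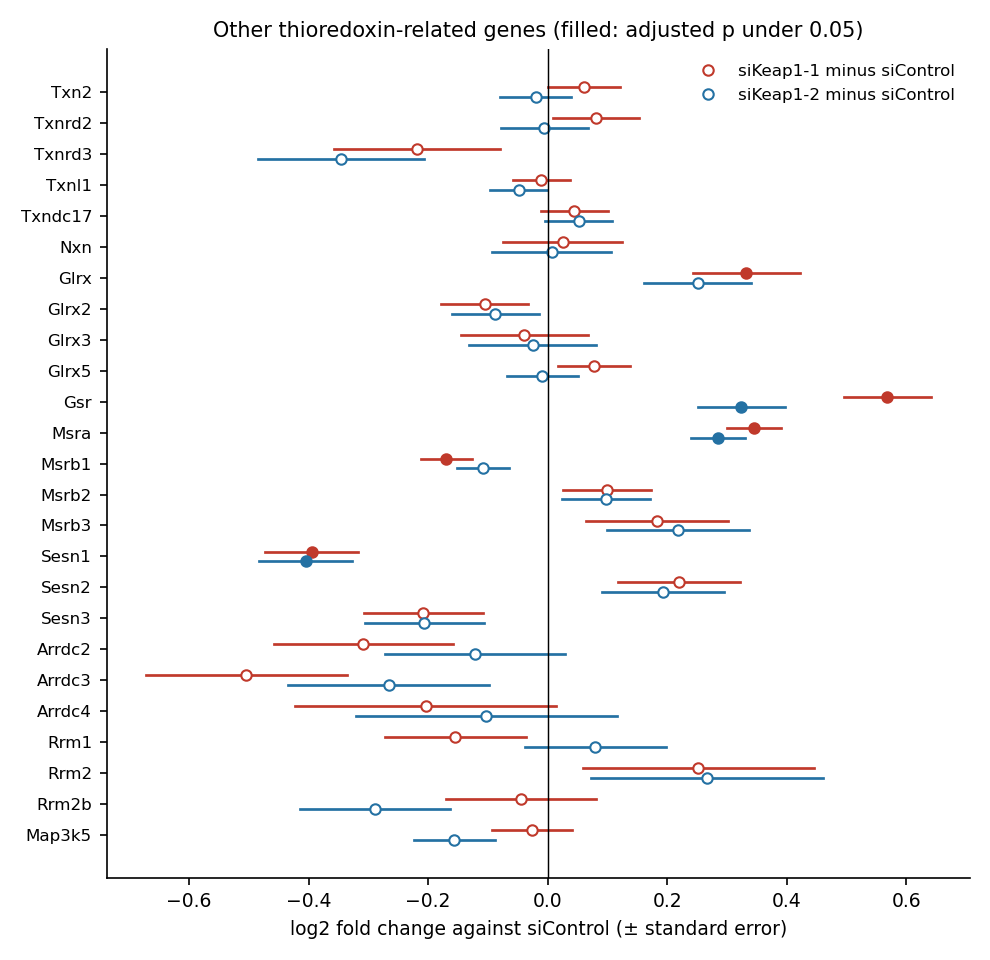
Log2 fold change against siControl of the 25 other thioredoxin-related genes at their brightest probe sets, with siKeap1-1 in red and siKeap1-2 in blue. Points are limma estimates with standard errors (n = 8 mice per group), filled where the adjusted p over 18193 genes was under 0.05. Gsr and Msra lie above 0 and Sesn1 below 0 with both siRNAs, Glrx and Msrb1 are filled with siKeap1-1 alone, and the rest are unfilled.

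The genes most like each member were sought over the 24 arrays by the Pearson correlation of their brightest probe sets, as a description, since all values of an array share 1 hybridised sample. In the log2 values themselves, which include the group differences, Srxn1 was most like Cbr3, Nqo1 and Cbr1 (each 0.98), genes of carbonyl and quinone reductases. Txnrd1 was most like Ugdh (0.95), Acyp2 (0.94) and Arpp19 (0.94). In deviations from the group means the nearest genes were others. Srxn1 was then nearest to Got2 (0.69), Lmo7 (0.68) and Aldoc (0.68), and Txnrd1 to Ckap4 (0.83), Col15a1 (0.80) and Cars (0.77). Txn1 was nearest to Masp1 (0.84), Cs (0.79) and Me1 (0.76), and Txnip to Setd1b (0.84), Rabggtb (0.83) and Pdp2 (0.82). Prdx2 was nearest to Ndufaf3 and Cox7a2l (each 0.88) and Churc1 (0.86), Prdx3 to Ccar2 and Sptssa (each 0.77) and Shc1 (0.76), and Prdx4 to Gtf3c6 (0.81) and Slc25a44 and Cyb5b (each 0.79). Between probe sets of different members the highest correlation of such deviations was 0.77, for the dim Txnrd1 1424486_a_at and Prdx2 1418506_a_at. The lowest was -0.61, for Txnrd1 1421529_a_at and Txnip 1415997_at. With the same Txnip probe set the dim Txnrd1 probe sets 1424487_x_at and 1424486_a_at had 0.17 and 0.25.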

How the data were processed

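Liver RNA of 24 mice (8 per group) was hybridised to Affymetrix arrays. The deposited values are log2 signals that the authors made with RMA, a method that subtracts background, makes the signal distributions of all arrays equal and reduces each probe set to 1 value per array. No RMA version is given in these sources. Because RMA equalises the distributions, a shift of all genes at once is not visible, and the number of arrays limits the precision. Groups were taken from the labels. Nothing in the labels says that arrays share a batch.

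The 64 manufacturer controls among 45101 probe sets were left out, and no filter on dim signals was applied. The platform annotation names 1 gene for 34945 of the remaining 45037 probe sets, several for 932 and none for 9160. Tests used limma (version 3.58.1, run in R 4.3.3), with all 3 groups in 1 model (lmFit, then eBayes) and Benjamini-Hochberg adjustment over all probe sets, or over 18193 genes represented by their brightest probe set. Keap1 and the 18S control were tested by exact permutation of the mice. The procedure was tested on simulated data. Alternatives covered normalization, centring, dim probe sets, moderation, array weights, samples in the fit, control arrays, the 18S control as a covariate, the replicate number as a block and the thresholds.

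The 10 genes, the lists and the tests were chosen with earlier results of these data known. Named are all members, Keap1, the thioredoxin-related genes past the threshold (at most 6 per comparison), and for each member the 3 genes with the highest correlation. Txn2, Txnrd2, Sesn2 and the cell type markers were named after their values were seen. Cell type markers were summed as linear signals. Python 3.11.15 with matplotlib 3.10.9 drew the figures.

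Replicate numbers were checked for pairing: of 24 pairs of arrays with the same number 9 had deviations that correlated above 0.1 (range -0.171 to 0.28), so the numbers were not taken as pairs.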

Additional observations from a re-analysis of the deposited data

Results flagged for a closer look

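Over the 18 probe sets, the highest and lowest array of each group of 8 mice was set against the others, which makes 54 groups, of which 3 held an array far from the rest. Chance gives about 1 in 20. For the dim Txnrd1 probe set 1424486_a_at, siKeap1-2 replicate 4 read 6.44 on the log2 scale, and the others 5.81 to 6.00. For Prdx4, siKeap1-2 replicate 5 read 13.10 at 1416167_at, below the others at 13.26 to 13.36, and 3.84 at the dim 1431269_at, below the others at 4.28 to 4.62. No cause was tested.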

How the results depend on the processing

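The main counts of called probe sets were 9, 8 and 0 of 18 for siKeap1-1 against siControl, siKeap1-2 against siControl and siKeap1-1 against siKeap1-2. Leaving out each array in turn gave 8 to 9, 8 to 8 and 0 to 0. With the mean of the 18S control probe sets as a covariate 5 and 4 were called against siControl. With the brightest 18S control probe set, added after seeing the data, 6 were called with siKeap1-1 and 4 with siKeap1-2. Against siControl replicates 1 to 3 alone 5 and 5 were called. Within replicates 1 to 3 of every group, also added after seeing the data, the counts were 4 and 3. At a fold over 2 with p under 0.01 they were 5 and 5. Between the siRNAs 1 was called in a fit of those groups alone. Of the 25 other thioredoxin-related genes 2 and 0 were called with the 18S covariate, a setting added for genes after seeing the data. The mean 18S control itself was higher with siKeap1-1 and siKeap1-2, by 0.56 and 0.52 in log2 signal (exact permutation test, p = 0.000932 and 0.00109). A fit with it as a covariate therefore separates its part from that of the siRNA only incompletely. Fits with fewer arrays have fewer degrees of freedom, and the cause of the other changes was not tested. The replicate number as a block gave 9, 8 and 0 called probe sets, 3, 3 and 0 of the 7 genes and 5, 3 and 0 of the 25, and changed no call of a probe set. Samples share only this number, and 3 of 24 arrays correlated best with their own number.

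Over single probe sets and alternatives, 222, 227 and 239 values kept their direction and side of the threshold in the 3 comparisons, 18, 17 and 0 no longer passed, 0, 0 and 1 newly passed, and 9, 5 and 9 turned their sign, none of which was called before or after. With siKeap1-1 within replicates 4 to 8, Txnip 1415997_at had 0.12, Prdx4 1416166_a_at 0.021 and Prdx4 1435731_x_at 0.012, and within replicates 1 to 3 Prdx2 1418506_a_at had -0.11. Prdx2 1418506_a_at had -0.051 and -0.045 with the mean and the brightest 18S covariate. Against siControl replicates 4 to 8 Prdx4 1416166_a_at had 0.0089 and 1435731_x_at 0.0080, and against replicates 1 to 3 Prdx4 1431269_at had 0.073. With siKeap1-2, Txnip 1415997_at had 0.051 with array weights and 0.13 against siControl replicates 4 to 8, Prdx2 1430979_a_at 0.0019 within replicates 1 to 3, and Prdx4 1431269_at -0.071 against siControl replicates 4 to 8 and -0.098 within replicates 4 to 8. Between the siRNAs, array weights gave 0.015 for Txn1 1456734_at and 0.026 for Txnrd1 1424487_x_at, replicates 1 to 3 gave 0.084 for Txn1 1456734_at, and replicates 4 to 8 gave 0.17 for Txnrd1 1424487_x_at, 0.18 for Txnrd1 1424486_a_at, 0.035 and 0.14 for Txnip 1415996_at and 1415997_at, 0.016 for Prdx2 1418506_a_at and 0.0080 for Prdx2 1430979_a_at. The filter on dim probe sets removed the dim member probe sets, which have no value there.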

Other observations

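Within groups, the log2 signal of Keap1 was set against that of Srxn1, Txnrd1 and Txn1 over the 8 mice, which makes 9 relations, and none had an adjusted p under 0.05 by exact permutation. No correlation is given for siControl and siKeap1-1, because their replicate sets differ in the 18S control, and none was computed within these sets. In siKeap1-2, where the sets overlapped in that control, the Pearson correlation was 0.16 for Srxn1, 0.27 for Txnrd1 and -0.013 for Txn1. The adjusted p was 0.892 or more by exact permutation. In siControl, Keap1 read 9.76 to 10.03 in replicates 1 to 3 and 9.33 to 9.64 in replicates 4 to 8. The means there were 10.54 and 10.29 for Srxn1 1426875_s_at, 12.85 and 12.93 for Txnrd1 1421529_a_at and 13.80 and 13.79 for Txn1 1416119_at. In siKeap1-1, Keap1 read 7.21 to 7.46 and 7.45 to 7.93 in these sets, with means of 12.30 and 12.39 for Srxn1, 13.50 and 13.39 for Txnrd1 and 13.99 and 14.01 for Txn1 at the same probe sets. In siKeap1-2, Keap1 read 8.06 to 8.44 and 8.03 to 8.59, with means of 11.99 and 11.97 for Srxn1, 13.24 and 13.28 for Txnrd1 and 13.98 and 13.97 for Txn1.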
